A study of Mus musculus with 38 samples.

Results

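The tight junction genes described here are the claudins Cldn1, Cldn3, Cldn4, Cldn7 and Cldn8, occludin (Ocln), the zonula occludens genes Tjp1 and Tjp3, and F11r, which encodes the junctional adhesion molecule JAM-A. They were taken by gene name, with earlier results of these data known. All 9 were present among the 28786 gene names of the arrays, read by 12 of 41174 probes. The 2 experiments of a transplant model of breast cancer were profiled on 38 two-color arrays. Hyperplasias of MMTV-PyMT;actin-GFP mice, which carry the polyoma middle T oncogene under a viral promoter that is active in mammary epithelial cells but not restricted to them, and GFP under an actin promoter that marks any donor cell, were placed in cleared mammary fat pads of FVB/n hosts, and GFP-positive cells were sorted from the outgrowths. The progression experiment held 5 adenomas and 6 carcinomas from the mammary gland, 6 samples of disseminated cells sorted from tumor-bearing lungs, with the lungs of several mice pooled, and 5 samples of lung metastases that had grown out after the primary tumor was removed. None of these groups was treated. The chemotherapy experiment held 6 untreated tumors, 6 residual tumors collected after the first dose of docetaxel, doxorubicin and cyclophosphamide and called regressed in the labels, and 4 relapsed tumors collected after the fourth dose and called resistant. Treatment began 2 months after transplantation. The labels number the replicates but do not say that each came from a separate host, so p-values measure the spread between these samples, which may in part be technical.

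Tight junctions seal the space between neighboring epithelial cells at the border of the apical and lateral membranes. Claudins form the paracellular strands and set which ions pass, occludin is a membrane protein of the MARVEL family in the same strands, and JAM-A is an immunoglobulin-like adhesion protein that helps to place the polarity complex. The zonula occludens proteins bind claudins, occludin and JAM-A from the cytoplasm and tie them to actin. In the mammary gland these junctions join luminal cells and close at the onset of lactation. Cldn3, Cldn4 and Cldn7 are typical of luminal epithelium, and low levels of these genes define the claudin-low class of human breast tumors.

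The 4 genes that were lower in disseminated cells than in carcinomas, Cldn3, Cldn7, Ocln and Tjp3, are shown with the 250 bases before their annotated start, 5′ to 3′ on the strand of the gene, from RefSeq on build GRCm38.p6. Capitals mark CAGGTG or CACCTG, a hexamer and its reverse complement that repressors of the Snail and Zeb families are known to bind.
Cldn3 (chr5:134985964-134986213, plus strand): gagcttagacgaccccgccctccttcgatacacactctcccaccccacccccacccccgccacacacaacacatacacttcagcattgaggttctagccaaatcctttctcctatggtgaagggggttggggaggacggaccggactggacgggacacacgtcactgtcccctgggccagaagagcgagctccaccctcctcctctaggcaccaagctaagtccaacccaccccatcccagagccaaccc
Cldn7 (chr11:69964529-69964778, plus strand): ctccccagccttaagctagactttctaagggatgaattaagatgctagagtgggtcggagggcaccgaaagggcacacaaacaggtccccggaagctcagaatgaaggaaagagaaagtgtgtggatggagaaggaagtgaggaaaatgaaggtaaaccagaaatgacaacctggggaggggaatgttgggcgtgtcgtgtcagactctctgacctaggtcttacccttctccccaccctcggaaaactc
Ocln (chr13:100552719-100552968, minus strand): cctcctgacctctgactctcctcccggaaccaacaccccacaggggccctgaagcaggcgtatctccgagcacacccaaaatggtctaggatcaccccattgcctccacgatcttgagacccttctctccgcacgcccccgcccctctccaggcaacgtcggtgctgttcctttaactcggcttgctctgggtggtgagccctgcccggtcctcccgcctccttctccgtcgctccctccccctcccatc
Tjp3 (chr10:81291582-81291831, minus strand): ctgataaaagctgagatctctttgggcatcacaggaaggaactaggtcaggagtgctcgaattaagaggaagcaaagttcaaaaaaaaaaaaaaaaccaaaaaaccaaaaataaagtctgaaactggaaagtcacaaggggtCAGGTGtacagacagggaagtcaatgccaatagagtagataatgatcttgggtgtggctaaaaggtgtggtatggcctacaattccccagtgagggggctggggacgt
The hexamer lay in the Tjp3 window, where it began 108 bases before the start, and these letters were not found in the other 3 windows. Of the 7 members with an entry at the annotated start, Cldn4, Tjp3 and F11r held it, compared with 17.2% of 32841 promoter windows of the same length. A second entry starting further inside the gene held it at 2 places in Cldn7, at 2 places in Ocln and at 1 place in Tjp3. GGGCGG or its complement CCGCCC, the GC box, was present at the annotated start of Cldn1, Cldn3, Cldn4, Ocln and F11r and in 32.7% of all windows. TATAAA on either strand (12.4% of all windows) and AACCGGTT, a site of Grainyhead-like factors (0.116%), were not found in any member window. The Tjp1 entry lies at an internal start, and Cldn8 had no entry.

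On every array Cy5 marked the sample and Cy3 the same Universal mouse reference RNA, so each value is a log2 ratio of sample to reference. A ratio compares arrays for one gene and does not rank genes against each other. The sample channel was well above background at 48.4 to 78.9% of spots on the progression arrays and 50.5 to 64.3% on the chemotherapy arrays. Among the progression arrays 4 stood apart, with a median correlation below 0.8 with the other arrays of their group: carcinoma replicate 6, disseminated replicates 4 and 6, and metastases replicate 4. Each count of called genes below was therefore also computed without them, a choice made after the data were seen. The share of all gene names called was not computed for the fits without them. The epithelial identity of the sorted cells was checked with 14 markers. All of them were well above background on every carcinoma and metastasis array and 13 of them on every disseminated array. Their mean log2 ratio averaged 2.91 ± 0.35 (SD, n = 5) in adenomas, 3.05 ± 0.62 (SD, n = 6) in carcinomas, 1.30 ± 1.19 (SD, n = 6) in disseminated cells and 2.55 ± 1.54 (SD, n = 5) in metastases. Markers of other cells were high in the lung groups: the mean over 15 macrophage genes ran from 0.01 to 0.66 in adenomas, from 3.50 to 5.18 in disseminated cells and from 1.16 to 5.54 in metastases, and the mean over 7 neutrophil genes from 1.34 to 1.73, from 3.22 to 6.45 and from 1.51 to 3.95 in these groups, although the cells had been sorted for GFP. Adenomas and disseminated cells shared 3 slides scanned on one day, carcinomas and metastases shared 3 others scanned on another day, and for every other pair of progression groups slide, scan day and group cannot be told apart. The 16 chemotherapy arrays lay on 5 slides scanned on 1 day. Each pair of these groups shared only 1 slide, so group and slide are largely mixed there as well.

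Among the claudins typical of luminal epithelium, Cldn3 and Cldn7 had their highest mean in carcinomas, and Cldn4, described below, in adenomas. Each had its lowest mean in disseminated cells. Neither Cldn3 nor Cldn7 was called for carcinomas against adenomas. For Cldn3 (probe at chr5:133958589-133958648 of build mm7), which seals the paracellular path, the adenomas gave log2 ratios of 5.66, 4.98, 5.25, 5.2 and 5.0. The carcinomas ran from 4.90 through a median of 6.23 to 7.06, the disseminated cells from 4.0 through 4.85 to 5.27, and the metastases gave 5.62, 6.05, 5.68, 3.92 and 6.22. Disseminated cells fell below 5 of the 6 carcinomas, the exception being carcinoma replicate 6, and metastases replicate 4 lay below all other metastases by a wide gap. Cldn3 was 2.75-fold lower in disseminated cells than in carcinomas (log2 change -1.46 ± 0.38, SE, adjusted p = 0.00768 by limma with Benjamini-Hochberg adjustment).

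Cldn7 (probe within chr11:70048852-70049161 of mm7), a claudin that also sits along the lateral membrane and partners EpCAM, varied more. The adenomas gave 5.30, 5.21, 4.20, 4.41 and 4.94. The carcinomas ran from 4.64 through a median of 5.82 to 6.54, the disseminated cells from 1.96 through 3.22 to 4.95, and the metastases gave 5.05, 6.56, 5.29, 1.70 and 6.06. Disseminated replicate 6 overlapped the carcinomas, and the other 5 disseminated samples lay below all of them. The level in disseminated cells was 5.92-fold lower than in carcinomas (log2 change -2.57 ± 0.65, SE, limma adjusted p = 0.00654) and the difference from adenomas was not called (-1.62 ± 0.68, adjusted p = 0.096).

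Cldn1 (probe at chr16:26020464-26020523 of mm7), a claudin needed for epidermal barrier function, and Cldn4 (probe at chr5:133916757-133916816 of mm7), a sealing claudin that neighbors Cldn3 on the chromosome, were highest in adenomas. The adenomas gave Cldn1 ratios of 5.61, 6.64, 4.93, 5.90 and 5.59, the carcinomas ran from 4.08 through 4.81 to 5.97, the disseminated cells from 2.75 through 3.91 to 5.29, and the metastases gave 4.13, 5.61, 4.28, 1.42 and 5.38. For Cldn4 the adenomas gave 3.68, 3.86, 3.11, 3.75 and 3.33, the carcinomas ran from 0.98 through 2.13 to 3.14, the disseminated cells from 0.65 through 1.17 to 3.37, and the metastases gave 2.87, 3.40, 3.75, 1.35 and 5.43. Disseminated replicates 1 and 6 were the high ones for Cldn4, only replicate 1 reached the range of the adenomas, and 5 of the 6 disseminated samples had a Cldn4 signal well above background. Relative to adenomas, disseminated cells were 3.41-fold lower for Cldn1 (log2 change -1.77 ± 0.60, SE, limma adjusted p = 0.0433) and 3.69-fold lower for Cldn4 (-1.89 ± 0.59, adjusted p = 0.0287). The Cldn4 difference between carcinomas and adenomas, -1.37 ± 0.59, was not called (adjusted p = 0.136), and its 95% confidence interval ran from -2.60 to -0.14.

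Cldn8 (probe at chr16:88610520-88610579 of mm7), a claudin best known for limiting sodium leak in distal kidney tubules, was not called in any comparison. The group means were 3.12 ± 0.68 (SD, n = 5) in adenomas, 2.75 ± 0.83 (SD, n = 6) in carcinomas, 2.17 ± 1.21 (SD, n = 6) in disseminated cells and 2.72 ± 1.14 (SD, n = 5) in metastases. The 6 disseminated samples separated into replicates 2, 3 and 5 at 0.77, 1.24 and 1.25 and replicates 1, 4 and 6 at 3.20, 3.46 and 3.12. The reference channel was well above background for Cldn8 on 0 of 22 progression arrays, for Cldn4 on 5 and for Cldn1 on 16, so the height of these ratios depended on the background correction.

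The same split of the disseminated samples recurred in Ocln, while in F11r replicate 6 stood apart from the other 5. Ocln (probe at chr13:97585859-97585918 of mm7) gave adenoma ratios of 4.05, 4.29, 4.42, 2.14 and 3.59, carcinoma ratios from 2.37 through a median of 4.18 to 4.45, disseminated ratios from 0.59 through 1.99 to 3.71, and metastasis ratios of 4.15, 5.34, 3.46, 1.47 and 4.70. Disseminated replicates 2, 3 and 5 lay below every primary tumor. Ocln was 3.69-fold lower in disseminated cells than in carcinomas (log2 change -1.88 ± 0.63, SE, limma adjusted p = 0.0318). F11r (probe at chr1:171433810-171433869 of mm7) gave adenoma ratios of 0.27, 0.25, -0.52, -0.98 and -0.03, carcinoma ratios from -0.01 through 0.49 to 0.63, and metastasis ratios of 1.45, 2.57, 0.79, -1.28 and 0.50. The disseminated samples ran from -2.86 through -1.40 to 1.86. Of these, 5 lay below every carcinoma, and disseminated replicate 6 lay above every primary tumor. F11r differed between disseminated cells and carcinomas by -1.60 ± 0.62 and between metastases and disseminated cells by 1.97 ± 0.65 on the log2 scale, and neither was called (limma adjusted p = 0.0623 and 0.0513).

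The zonula occludens scaffolds moved in opposite directions in metastases at the brighter Tjp1 probe, but not at the dimmer one, which is described below. Tjp3 (probe at chr10:81065802-81065861 of mm7), which encodes ZO-3, a scaffold found in epithelia, gave adenoma ratios of 2.62, 2.95, 3.19, 3.68 and 3.02. The carcinomas ran from 0.23 through a median of 2.27 to 2.50, the disseminated cells from -1.02 through 0.45 to 1.92, and the metastases gave 0.65, 1.54, 1.03, -0.94 and 1.26. All samples of the 3 later groups lay below all adenomas, a pattern held by 4.56% of gene names for carcinomas, 5.09% for disseminated cells and 11.7% for metastases. Tjp3 was 6.11-fold lower than in adenomas in disseminated cells (log2 change -2.61 ± 0.48, SE, limma adjusted p = 0.00164) and 5.22-fold lower in metastases (-2.38 ± 0.50, adjusted p = 0.00161). The decrease from carcinomas to disseminated cells was 2.70-fold (-1.43 ± 0.46, adjusted p = 0.0259), while the values for carcinomas against adenomas (-1.18 ± 0.48, adjusted p = 0.117) and metastases against carcinomas (-1.21 ± 0.48, adjusted p = 0.0793) did not pass the test.

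Tjp1, which encodes ZO-1, the scaffold on which junction strands assemble, was highest in metastases at its brighter probe (chr7:61154784-61154843 of mm7). The values in this paragraph are from that probe. The adenomas gave -0.39, -0.65, -1.26, -2.25 and -0.71, with 3 of the 5 well above background, and the carcinomas ran from -0.94 through a median of -0.45 to -0.21. The disseminated cells ran from -2.53 through -1.57 to 0.36 and the metastases gave 1.59, 2.25, 1.58, -0.68 and 1.16. Apart from metastases replicate 4, every metastasis exceeded every other progression sample. Tjp1 was 4.69-fold higher in metastases than in adenomas (log2 change 2.23 ± 0.53, SE, limma adjusted p = 0.00381), 3.25-fold higher than in carcinomas (1.70 ± 0.51, adjusted p = 0.0206) and 5.90-fold higher than in disseminated cells (2.56 ± 0.51, adjusted p = 0.00268).

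**Figure D1:**
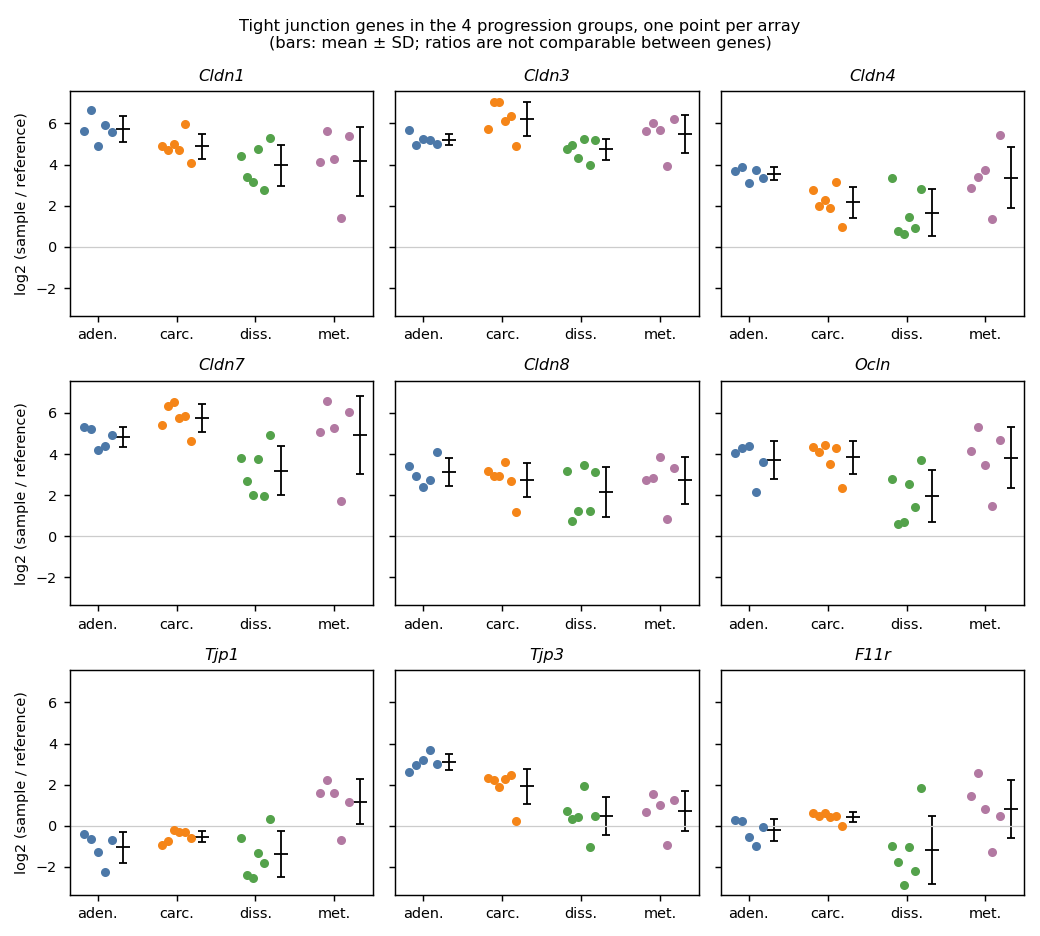
Log2 ratio of sample to reference (vertical axis) for the 9 genes in adenomas, carcinomas, disseminated cells and metastases (horizontal axis), with one point per array in replicate order and bars for mean ± SD. Tjp3 lies lower in every group after the adenomas, Tjp1, at its brighter probe, is highest in 4 of the 5 metastases, and the disseminated samples of Cldn8 separate into 3 near 1 and 3 near 3.

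Tjp1, Cldn1 and Ocln each had a second, dimmer probe, and for Tjp1 and Cldn1 the probes did not give the same picture. The dimmer Tjp1 probe (chr7:61171235-61171294 of mm7) lies 16.4 kb from the brighter one, towards the 5′ end of the gene. There the metastases gave -0.47, -0.68, -0.46, -0.26 and -0.59, compared with -0.07, -0.35, 1.0, -0.38 and 0.31 in adenomas, and all but replicate 4 lay below all adenomas, with 3 of the 5 metastases and 4 of the 5 adenomas well above background. The log2 change of metastases against adenomas at this probe was -0.59 (limma adjusted p over all probes = 0.0172), opposite in sign to that at the brighter probe, and the changes against carcinomas (-0.07) and disseminated cells (-0.21) were not called. With the mean of both probes the Tjp1 values were 0.82, 0.81 and 1.17 against the 3 other groups. The rise of Tjp1 in metastases therefore rests on 1 of its 2 probes.

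The dimmer Cldn1 probe (chr16:26018826-26018885 of mm7) lies 1.58 kb from the other, towards the 3′ end. The metastases gave 4.78, 5.86, 4.40, 2.01 and 4.10 there and the adenomas 3.52, 3.36, 1.05, 1.83 and 2.50. No comparison at this probe was called, the largest log2 change being 2.01 for metastases against carcinomas (limma adjusted p = 0.0544), and the fall of Cldn1 in disseminated cells was -0.22 (adjusted p = 0.87) as read here. The dimmer Ocln probe, whose match spans chr13:97627594-97628787 of mm7, was not well above background on any disseminated array and was so on 1 of the 5 metastasis arrays. Its log2 change in disseminated cells had the same sign, -0.86 against adenomas (limma adjusted p over all probes = 0.0399) and -0.68 against carcinomas (0.0707). With the mean of both probes Ocln was called lower against adenomas (-1.30, adjusted p = 0.0124) and carcinomas (-1.28, adjusted p = 0.00742).

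**Figure D2:**
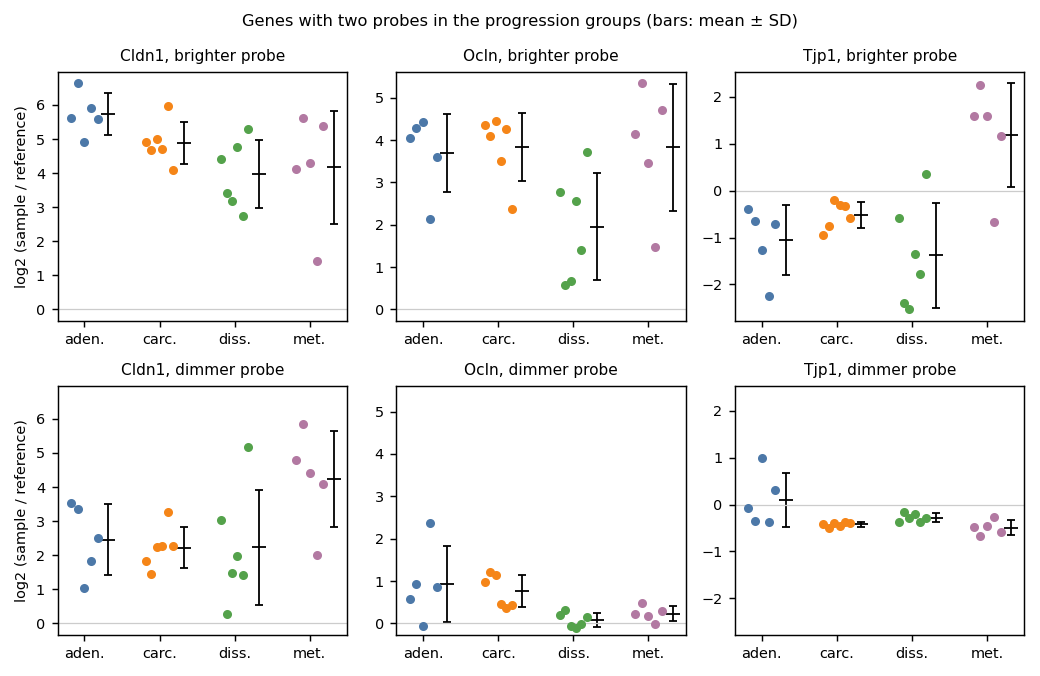
Log2 ratio of sample to reference (vertical axis, shared within a column) at the brighter probe (top) and dimmer probe (bottom) of Cldn1, Ocln and Tjp1 in the 4 progression groups, with one point per array and bars for mean ± SD. At the dimmer Tjp1 probe the metastases, between -0.68 and -0.26, do not rise above the other groups.

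Between carcinomas and adenomas, the primary stages, none of the 9 genes passed both limits of a call, an adjusted p below 0.05 and at least a 2-fold difference, where 3.3% of all gene names did so in either direction. At an unadjusted p below 0.05 limma gave 3 of them, Cldn3 higher and Cldn4 and Tjp3 lower. An equal-variance test without moderation called Cldn4 after Benjamini-Hochberg adjustment. The median log2 change of the members was 0.14, compared with 0.06 over all gene names, and 5 values were positive and 4 negative. Without carcinoma replicate 6 Cldn3 was called (1 gene), and without the 4 arrays that stood apart Cldn3 and Cldn7 were called higher in carcinomas (1.25, adjusted p = 0.00422, and 1.17, adjusted p = 0.0406).

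Disseminated cells had lower values than primary tumors for all 9 genes. Against adenomas 3 were called lower, Cldn1, Cldn4 and Tjp3, where 10.5% of gene names were called and 5.82% were called lower, and the median change of the members was -1.62 beside -0.01 over all gene names. Against carcinomas 4 were called lower, Cldn3, Cldn7, Ocln and Tjp3, where 11.6% were called and 6.07% were called lower, and the median change was -1.43 beside -0.07. The comparisons share the disseminated samples. Leaving out adenoma replicate 1 or 2 or disseminated replicate 2, 3 or 5 left Tjp3 as the only call against adenomas, and leaving out disseminated replicate 6 gave 6 calls. Over the 11 fits with 1 array left out, Tjp3 was called in 11, Cldn4 in 5 and Cldn1 in 3. Against carcinomas, leaving out carcinoma replicate 1, 2 or 5 or disseminated replicate 5 left Cldn3 and Cldn7. Over the 12 such fits, Cldn3 and Cldn7 were called in 12, Tjp3 in 7 and Ocln in 5. Without the 4 arrays that stood apart, 7 members were called lower than in adenomas and 8 lower than in carcinomas. Those arrays include the disseminated sample with the highest member mean (replicate 6, 3.09) and the carcinoma with the lowest (replicate 6, 1.97). Leaving them out therefore widened the differences, and these 2 counts are not separate support for them.

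These decreases ran alongside those of epithelial markers as a whole, and in sorted bulk samples fewer epithelial cells and less RNA per cell cannot be told apart. Of the 14 epithelial markers, 6 were called lower in disseminated cells than in adenomas (median log2 change -1.87) and 6 lower than in carcinomas (-1.73). Krt8 and Krt18, the keratins of simple epithelium, were -3.20 and -3.19 against carcinomas, and Epcam and Cdh1, epithelial adhesion genes, were -1.99 and -1.04 and not called. Of 15 macrophage genes 13 were called higher than in adenomas and 11 higher than in carcinomas, and of 8 lung epithelial genes 6 were called higher in both comparisons. Of 7 neutrophil genes 6 were called higher than in adenomas (median log2 change 4.18) and 7 higher than in carcinomas (3.34), and of 8 endothelial genes 5 and 3. All 15 macrophage, all 7 neutrophil and all 8 lung epithelial genes were well above background on every disseminated array.

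Array by array, the mean of the 9 members was 2.39, 1.04, 0.79, 2.31, 0.80 and 3.09 in disseminated replicates 1 to 6, and the epithelial mean was 1.66, 0.71, -0.03, 2.36, 0.19 and 2.89 on the same arrays. Replicates 2, 3 and 5 were the low ones in both, and replicate 6 was the highest in both. The member means of primary tumors ran from 2.73 to 3.44 apart from carcinoma replicate 6 at 1.97, so that replicate 6 of the disseminated cells lay within that range and replicates 1 and 4 lay below it. The macrophage mean of these arrays was 5.18, 4.08, 4.14, 3.50, 4.67 and 4.48 and did not follow the split. The neutrophil mean, 5.2, 6.45, 5.73, 5.38, 6.10 and 3.22, and the endothelial mean, 1.43, 2.64, 2.02, 0.99, 2.07 and 0.94, did follow it, with replicates 2, 3 and 5 the highest on both. The part of these cells in the split was not tested. The lowest primary tumor, carcinoma replicate 6 with a member mean of 1.97, had a macrophage mean of 4.94, while the other carcinomas had macrophage means from -0.37 to 0.81.

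When the mean of the epithelial markers on the same array was subtracted from every gene, none of the members was called in disseminated cells against either primary group. The values of Cldn3 and Tjp3 against carcinomas then changed sign, to 0.30 and 0.32. With the macrophage mean as a covariate none was called either, Tjp3 against adenomas being -0.95 (limma adjusted p = 0.545) and Cldn7 against carcinomas -1.03 (adjusted p = 0.5). The macrophage mean ran from 0.01 to 0.66 in adenomas and from 3.50 to 5.18 in disseminated cells. Among carcinomas only replicate 6, at 4.94, reached the range of disseminated cells. The covariate was therefore nearly tied to the group, and these fits could hardly separate the 2. Without the 4 arrays that stood apart none was called with that covariate, but the values stayed large and their errors widened, Tjp3 against adenomas being -2.35 ± 0.59 (adjusted p = 0.0853) and Cldn7 against carcinomas -2.51 ± 0.82 (adjusted p = 0.137). For that reason the fits do not decide the part of other cells in these differences, which was not tested. Adenomas and disseminated cells could also be compared within 3 slides, where Tjp3 was lower in each, by values from -3.29 to -2.05. Cldn1, Cldn3, Cldn4 and Cldn7 were lower in each as well. On the slide with disseminated replicates 1 and 6 the remaining members were higher in disseminated cells. The values there were 1.21 for Tjp1, 0.79 for F11r, 0.15 for Ocln and 0.08 for Cldn8, and these genes were lower on the other slides. With slide as a fixed block 4 members were called lower, Cldn1, Cldn4, Cldn7 and Tjp3.

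**Figure D3:**
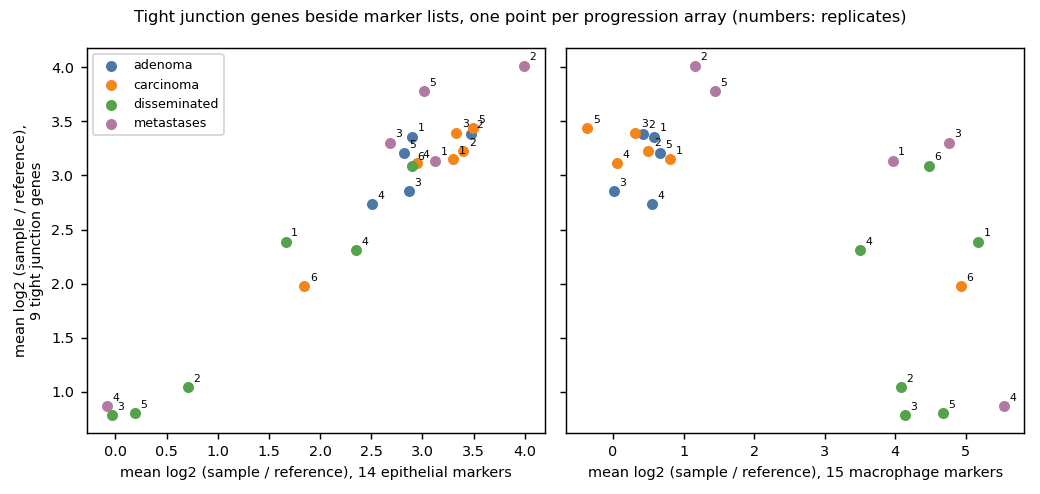
Mean log2 ratio of the 9 tight junction genes (vertical axis) against the mean of 14 epithelial markers (left) and of 15 macrophage markers (right), with one point per progression array, colored by group and numbered by replicate. Disseminated replicates 2, 3 and 5 and metastases replicate 4 are lowest on both the vertical axis and the epithelial axis, and carcinoma replicate 6 lies among the arrays with high macrophage means.

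In metastases Cldn3, Cldn7, Cldn8 and Ocln had means within 2-fold of both groups of primary tumors, although their confidence intervals were wide. Against adenomas Tjp1, read at its brighter probe here and below, was called higher and Tjp3 lower. In that comparison 14.6% of gene names were called, 6.09% of them higher and 8.47% lower as shares of all names. Both calls held with each array left out in turn, and the remaining 7 changes ran from -1.57 for Cldn1 to 1.01 for F11r. Of the 15 macrophage genes 12 were called higher in the same comparison. With the macrophage mean as a covariate Tjp1 was called (2.63, adjusted p = 0.0157), Tjp3 was not (-1.14, adjusted p = 0.109) and Cldn3 was called higher (1.28, adjusted p = 0.0323). The lowest macrophage mean of the metastases, 1.16, lay above the highest of the adenomas, 0.66, so this fit also separates covariate and group poorly. Without the 4 arrays that stood apart F11r was called as well (1.53, adjusted p = 0.00812). Relative to the epithelial markers Tjp1 stayed higher (2.60, adjusted p = 0.0191) and Tjp3 was not called (-2.02, adjusted p = 0.107). Against carcinomas Tjp1 alone was called, where 10.1% of gene names were called and 4.75% were called higher. That call was lost without metastases replicate 1, 2 or 3, while Cldn4 was added without metastases replicate 4 and Tjp3 without carcinoma replicate 6 (2 calls each). Within the 3 slides shared with carcinomas Tjp1 was higher in metastases in each, by 1.03 to 2.70. For Ocln the metastases differed from carcinomas by -0.02, with a 95% confidence interval from -1.39 to 1.36.

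Relative to disseminated cells all 9 values were higher in metastases, with a median log2 change of 1.70 beside 0.01 over all gene names, but the test called Tjp1 only, where 7.12% of gene names were called and 3.43% were called higher. Cldn4 (1.70, adjusted p = 0.0627), Ocln (1.87, adjusted p = 0.0671), Cldn7 (1.74, adjusted p = 0.0979) and F11r fell short. Metastases replicate 4 was the lowest metastasis for each of the 9 genes, its member mean being 0.87 beside 3.14 to 4.02 in the others, and it also had the lowest epithelial mean (-0.08) and the highest macrophage mean (5.54). Without it 6 members were called higher than in disseminated cells, Cldn3, Cldn4, Cldn7, F11r, Ocln and Tjp1. Without disseminated replicate 6 there were 5, without disseminated replicate 1 there were 2, and without all 4 arrays that stood apart there were 8, Tjp3 (1.0, adjusted p = 0.026) being the one left just under the 2-fold limit. Those 4 include the disseminated sample with the highest member mean and the metastasis with the lowest, so leaving them out widened the differences. Of the 15 macrophage genes none was called and 14 had negative values, 2 of 8 lung epithelial and 6 of 7 neutrophil genes were called lower (median log2 change -0.91 and -2.64), and of the 14 epithelial markers 13 had positive values and 1 was called. With the epithelial mean subtracted no member was called, the largest difference being that of Tjp1 (1.31, adjusted p = 0.129).

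**Figure D4:**
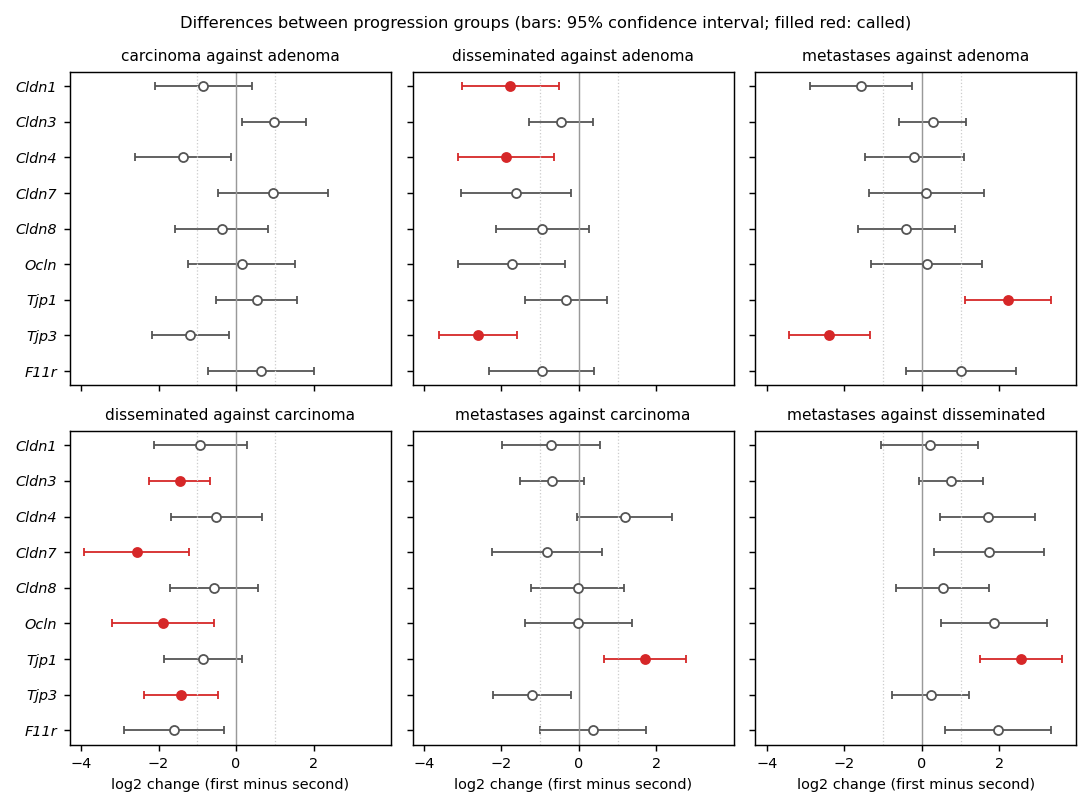
Log2 change, first group minus second (horizontal axis), of the 9 genes (vertical axis) in the 6 comparisons of progression groups, with bars for the 95% confidence interval and filled red points for calls at an adjusted p below 0.05 and a 2-fold change. All points lie left of 0 in both comparisons of disseminated cells with primary tumors and right of 0 for metastases against disseminated cells, with 3, 4 and 1 calls.

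The order of group means gave few neighbors that differed. Only for Tjp1, metastases above carcinomas, was the step between adjacent groups called. Disseminated cells had the lowest mean for all 9 genes. Adenomas had the highest mean for Cldn1, Cldn4, Cldn8 and Tjp3, carcinomas for Cldn3, Cldn7 and Ocln, and metastases for Tjp1 and F11r.

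Of 52 other tight junction genes listed, 50 were measured. Between carcinomas and adenomas 2 of the 50 were called, near the 3.3% of all gene names called. Both were lower, among them Ybx3, which encodes the ZO-1-associated factor ZONAB (-1.55 ± 0.22, adjusted p = 0.000329). In disseminated cells against adenomas 4 were higher and 10 lower, with a median log2 change of -0.39. Of all gene names 10.5% were called in that comparison and 5.82% were called lower. The largest decreases were those of the polarity gene Crb3 (-3.39 ± 0.66, adjusted p = 0.0022), Marveld3 (-2.91 ± 0.61, adjusted p = 0.00325) and Marveld2 (-2.88 ± 0.69, adjusted p = 0.00688), which encodes tricellulin, the protein of junctions where 3 cells meet. The genes that rose were Clmp (2.59 ± 0.67, adjusted p = 0.0107), an adhesion gene of the CTX family, and Cldn5, Esam and Cldn18. These last 3 genes, and Ybx3 above, were picked after their values were seen. Cldn5 and Esam are junction genes of endothelium and Cldn18 of lung epithelium, and Cldn5 rose by 2.03 ± 0.38 (adjusted p = 0.00179) and Cldn18 by 1.21 ± 0.23 (adjusted p = 0.0021). Of 8 endothelial genes 5 were called higher in the same comparison.

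Against carcinomas 2 of the other genes were higher in disseminated cells, Clmp (2.60 ± 0.64, adjusted p = 0.0055) and Cldn5, and 9 were lower, led by Crb3 (-2.23 ± 0.63, adjusted p = 0.0129), Cldn10 (-2.09 ± 0.69, adjusted p = 0.0295) and Igsf5, which encodes JAM-4 (-2.0 ± 0.54, adjusted p = 0.00957). Of all gene names 11.6% were called in this comparison and 6.07% were called lower. The count of other tight junction genes called fell to 4 without carcinoma replicate 3 or disseminated replicate 5. It fell to 6 or 7 without carcinoma replicate 1 or 2 or disseminated replicate 3. Metastases differed from adenomas at 4 genes higher and 9 lower, where 14.6% of all gene names were called, 6.09% higher and 8.47% lower. Crb3 (-2.54 ± 0.69, adjusted p = 0.00915), the virus receptor gene Cxadr (-2.10 ± 0.68, adjusted p = 0.0264), Clmp (2.14 ± 0.70, adjusted p = 0.0272) and Lin7c, a polarity adaptor gene (2.01 ± 0.51, adjusted p = 0.0059), changed most.

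From carcinomas to metastases 4 of the other genes rose and 3 fell, not far from the 10.1% of all gene names called. The largest changes were those of Cldn10 (-2.28 ± 0.72, adjusted p = 0.0279), Lin7c (2.24 ± 0.49, adjusted p = 0.00325), Clmp (2.15 ± 0.67, adjusted p = 0.0262) and Jam2 (-1.62 ± 0.53, adjusted p = 0.0338). The total of 7 fell to 2 to 4 without carcinoma replicate 1, 2 or 3 or metastases replicate 1, 2, 3 or 4. Between metastases and disseminated cells the polarity scaffold gene Mpp5 rose (1.31 ± 0.40, adjusted p = 0.0334) and Esam (-1.06 ± 0.32, adjusted p = 0.031) and Tjap1 (-1.02 ± 0.19, adjusted p = 0.00185) fell. These 3 calls lie near the share of all gene names called, 7.12%. That total of 3 was 8 without metastases replicate 4 and 9 without disseminated replicate 6, and 0 or 1 without disseminated replicate 2, 3 or 4 or metastases replicate 1, 2 or 3.

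Likeness across the 22 progression arrays was measured by the root mean square difference from each member after centering each gene on its own mean, over 20426 gene names above background on every array of at least 1 group. The nearest gene to Tjp3 was Shroom1, at a difference of 0.36 log2 units beside a spread of 1.27 for Tjp3 itself, and the nearest to F11r was Parva at 0.35 beside 1.27. Cldn7 was nearest to Tmc4 (0.42 beside 1.44) and Ocln to Mid2 (0.46 beside 1.32), with Tmc4 next for Ocln (0.50). Cldn3 was nearest to LOC432995 (0.22 beside 0.82), Cldn1 to Nedd4 (0.44 beside 1.16), Cldn8 to Armcx1 (0.46 beside 0.96), Tjp1 to Snrpn (0.47 beside 1.24) and Cldn4 to Rkhd3 (0.61 beside 1.21). These figures describe the arrays, which share normalization and groups, and carry no test.

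In the chemotherapy experiment, which asked how tumors that survive or regrow after treatment differ from untreated tumors, none of the 9 genes was called in any comparison by limma. All gene names gave few calls, 0.0938% for residual against untreated tumors, 0.0104% for relapsed against untreated and 0.212% for relapsed against residual. At an unadjusted p below 0.05 and any size of change, limma gave 1 member in each comparison. An equal-variance test without moderation was counted with the 2-fold limit kept and gave 0. No member changed by 2-fold here, the largest log2 change being 0.52, so that 0 was fixed beforehand. All members were well above background in the sample channel on every array. Untreated tumors had a mean over the 9 members of 3.91 ± 0.11 (SD, n = 6), beside 4.06 ± 0.13 (SD, n = 6) for residual tumors and 4.10 ± 0.18 (SD, n = 4) for relapsed tumors. The spread between arrays of a group was far smaller than among the lung samples.

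The gene nearest to the threshold in residual tumors was Tjp3. Untreated tumors ran from 2.70 through a median of 2.87 to 2.92, residual tumors from 2.86 through 2.98 to 3.45, and relapsed tumors gave 2.95, 2.91, 2.81 and 2.51. The groups overlapped, with residual replicates 1 and 2 highest. Residual tumors differed from untreated ones by 0.23 ± 0.10 (log2 change, SE, limma adjusted p = 0.506) and relapsed from residual ones by -0.27 ± 0.11 (adjusted p = 0.578). F11r ran from 2.19 through 2.43 to 2.58 in untreated tumors, from 2.26 through 2.53 to 2.83 in residual tumors, and was 2.71, 2.58, 2.81 and 2.53 in relapsed tumors, a difference of relapsed from untreated tumors of 0.24 ± 0.11 (adjusted p = 0.61).

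The other members moved within similar bounds. Ocln had the largest rise in residual tumors, 0.52 ± 0.25 (adjusted p = 0.573), with untreated tumors from 3.40 through 3.94 to 4.38, residual tumors from 3.52 through 4.46 to 5.06 and relapsed tumors at 3.70, 4.34, 4.79 and 4.14. Cldn8 had the largest decrease, -0.50 ± 0.29 (adjusted p = 0.64), and Cldn1 the largest rise in relapsed tumors, 0.49 ± 0.28 (adjusted p = 0.749). All of these ranges overlapped. Over the 9 members the 95% confidence intervals reached from -1.11 to 1.06 for residual against untreated, from -0.88 to 1.07 for relapsed against untreated and from -0.77 to 0.98 for relapsed against residual tumors.

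**Figure D5:**
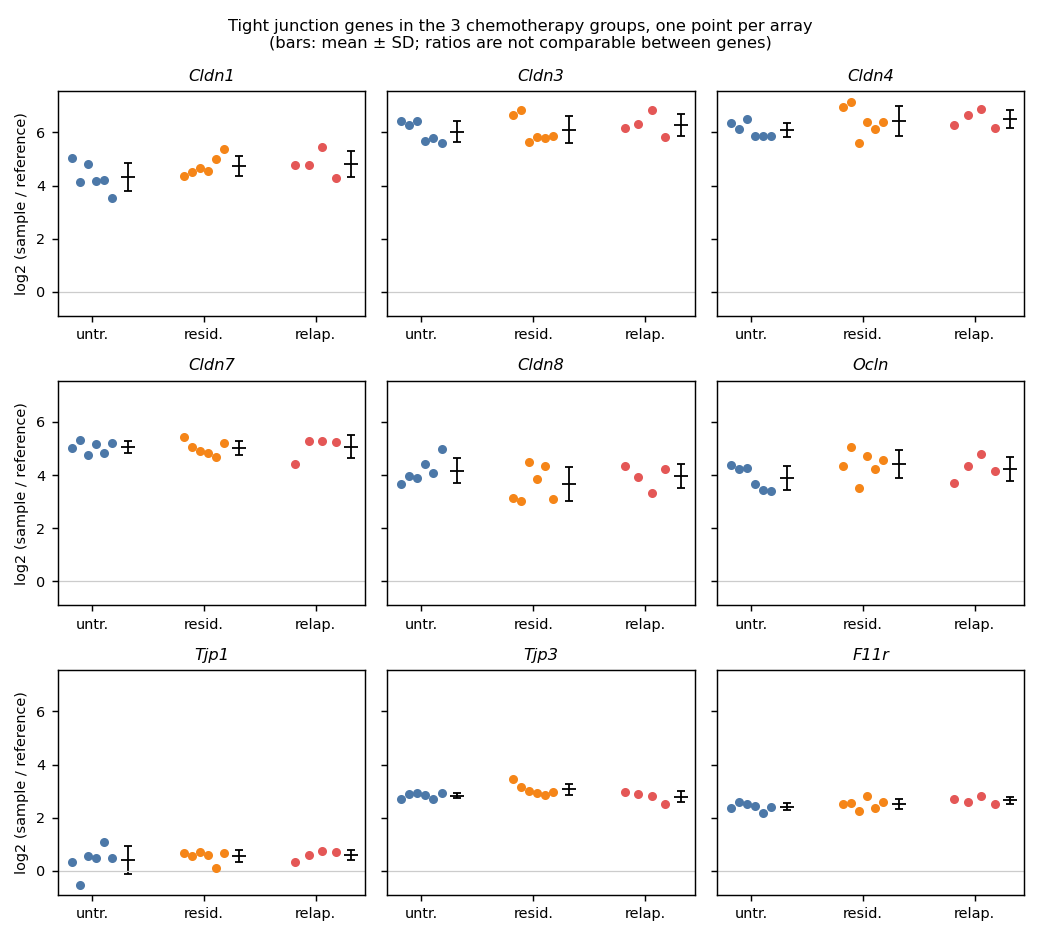
Log2 ratio of sample to reference (vertical axis) for the 9 genes in untreated, residual and relapsed tumors (horizontal axis), with one point per array in replicate order and bars for mean ± SD. The 3 groups overlap for every gene, and the group means of the 9 genes differ by at most 0.52.

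The 50 other tight junction genes gave 0 calls in the 3 chemotherapy comparisons by limma. At an unadjusted p below 0.05 and any size of change, limma gave 8 for residual against untreated tumors. It gave 7 for relapsed against untreated and 1 for relapsed against residual. The unmoderated test, counted with the 2-fold limit kept, gave 2, 1 and 0 before adjustment and 0 after it. The counts of the 2 tests are therefore not comparable. The median log2 change of the list was -0.01, 0.00 and 0.02 in these comparisons. Untreated tumors had an epithelial marker mean of 3.65 ± 0.20 (SD, n = 6), beside 3.85 ± 0.22 (SD, n = 6) for residual tumors and 3.86 ± 0.20 (SD, n = 4) for relapsed tumors, and none of these 14 markers was called. The macrophage mean ran from -0.28 to 2.54, from -0.39 to 1.68 and from -0.78 to 0.93 in the same groups.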

How the data were processed

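The authors deposited one scanner output per array, from Agilent Feature Extraction 10.7, with spot intensity in Cy5 (sample) and Cy3 (Universal mouse reference), and a table of log2 ratios that per the methods was normalized with limma. No dyes were swapped. RNA of the progression samples went through an additional round of amplification, so both experiments were normalized and fitted apart. From the deposited intensity values, mean signals were background-corrected (normexp, offset 50), normalized by loess within and quantile between arrays, averaged per probe, and tested with limma 3.58.1 in R 4.3.3 on all groups of an experiment. The brightest probe stood for a gene. A gene was called at a Benjamini-Hochberg adjusted p below 0.05 and a 2-fold change. The fit and the calling rule were tested on simulated log2 ratios with independent noise. Background correction, normalization and probe choice were not simulated. The number of arrays limits the precision.

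The 9 genes and all lists were chosen with earlier results of these data known. All 9 genes were named throughout, with up to 4 other tight junction genes per comparison, those with the largest called change, and exceptions stated. The values of 1 other tight junction gene are not reported here. Probe positions are those of the scanner files on mm7, and exons were not assigned. Alternatives covered background correction, normalization, probe choice, covariates, batch and replicate terms, the test, and single arrays left out.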

Additional observations from a re-analysis of the deposited data

Results flagged for a closer look

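In 5 of 63 sets of one gene in one group, a single array lay far from the others relative to the range of its group, where chance gives about 1 in 20. Cldn3 in metastases replicate 4 was 3.92 on the log2 ratio scale, with the other metastases from 5.62 to 6.22. In carcinoma replicate 6, F11r was -0.0092 with the other carcinomas from 0.44 to 0.63, and Tjp3 was 0.23 with the others from 1.90 to 2.50. Both of these arrays also had high macrophage and low epithelial means, and the part of those cells was not tested for the single genes. Among treated tumors, Cldn7 was 4.43 in relapsed replicate 1, with the others from 5.24 to 5.30, and Tjp1 was 0.12 in residual replicate 5, with the others from 0.57 to 0.71.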

How the results depend on the processing

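Counts of called genes among the 9 members and the 50 other tight junction genes moved as follows, and the cause was not tested unless the setting itself removes samples, genes or probes. Shares over all gene names are not given for these settings. Leaving out 1 array at a time gave 0 to 1 members for carcinomas against adenomas, 1 to 6 for disseminated cells and 2 to 3 for metastases against adenomas, 2 to 5 for disseminated cells and 0 to 2 for metastases against carcinomas, and 1 to 6 for metastases against disseminated cells. The other genes gave 1 to 3, 11 to 19, 9 to 15, 4 to 15, 2 to 9 and 0 to 9 in the same order. Both lists gave 0 in all chemotherapy comparisons.

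For carcinomas against adenomas, members called were 2 without the 4 arrays that stood apart, also with the macrophage covariate, 1 with that covariate alone, with only these groups in the fit, with processed signals and by an equal-variance test without moderation after adjustment, and 2 by that test unadjusted. The other genes, 2 in the report, were 1 with Aquantile, no normalization between arrays, an adjusted p below 0.01, median centering or the mean of probes, 0 relative to epithelial markers, 6 at any size of change, 5 with only these groups and 7 by the unadjusted unmoderated test.

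For disseminated cells against adenomas, members were 7 without the 4 arrays, 0 with the macrophage covariate with or without them (without them Tjp3 was -2.35, Cldn4 -1.75 and Cldn8 -2.70, with wider errors) and relative to epithelial markers, 1 with Aquantile, no normalization between arrays, an adjusted p below 0.01, the deposited ratios or the adjusted unmoderated test, and 5 by the unadjusted unmoderated test. The other genes were 0 with the macrophage covariate, with or without the 4 arrays, 9 with either change of the scaling between arrays (Aquantile or none) and 8 at an adjusted p below 0.01.

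For disseminated cells against carcinomas, members were 8 without the 4 arrays, 0 with the macrophage covariate with or without them (without them Cldn7 was -2.51, Cldn3 -1.39, Tjp3 -1.48 and Ocln -1.72, with wider errors) and relative to epithelial markers, 1 with either of those changes of scaling, and 2 at an adjusted p below 0.01 or by the adjusted unmoderated test. Relative to epithelial markers the log2 changes reversed to 0.30 for Cldn3 and 0.32 for Tjp3. The other genes were 25 without the 4 arrays, 1 when the macrophage covariate was added to that, 0 with the covariate alone, 2 at an adjusted p below 0.01, 18 with processed signals, 27 relative to epithelial markers and 5 by the adjusted unmoderated test. The epithelial mean was 1.30 in disseminated cells and 3.05 in carcinomas, so subtracting it raised every gene name in this comparison. The 27 therefore cannot be read as a result about tight junction genes.

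For metastases against adenomas, members were 1 with the mean of a gene's probes or relative to epithelial markers, 3 without the 4 arrays (F11r added), and 2 with the macrophage covariate, where Cldn3 took the place of Tjp3. The other genes were 3 with the macrophage covariate, with or without the 4 arrays, 8 with Aquantile, no normalization between arrays or the deposited ratios, 6 at an adjusted p below 0.01 or by the adjusted unmoderated test, 5 with the mean of probes and 0 relative to epithelial markers.

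For metastases against carcinomas, members were 2 without the 4 arrays or without outlying backgrounds, and 0 when the macrophage covariate was added to the former, at an adjusted p below 0.01, with the mean of probes, with processed signals or relative to epithelial markers. The other genes were 0 without the 4 arrays and with the covariate, 1 with the covariate alone or relative to epithelial markers, 3 with Aquantile or no normalization between arrays, 2 at an adjusted p below 0.01 and 4 by the adjusted unmoderated test.

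For metastases against disseminated cells, members were 8 without the 4 arrays, 7 with the macrophage covariate added, 2 with Aquantile, no normalization between arrays or an offset of 0, 4 with the deposited ratios, median centering or outlying backgrounds left out, 3 with dim probes left out or processed signals, and 0 relative to epithelial markers or by the adjusted unmoderated test. The other genes were 24 without the 4 arrays, 16 with the covariate added, 1 at an adjusted p below 0.01, with the mean of probes or with only these groups, and 0 by the adjusted unmoderated test. By the unadjusted unmoderated test, with the 2-fold limit kept, 2 other genes passed for residual and 1 for relapsed against untreated tumors.

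Same-numbered arrays of different groups had deviations with a median correlation of -0.02 over 31 pairs of progression arrays and 0.04 over 14 pairs of chemotherapy arrays. Single pairs ran from -0.41 to 0.32 and from -0.41 to 0.42. These values do not exclude pairing by number, and the labels do not state it. With the replicate number as a block, 1 member was called for disseminated cells against adenomas and 2 for metastases against disseminated cells, and the other comparisons kept their counts of members. The fits without the 4 arrays were chosen after seeing the data.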
